A study of Mus musculus with 12 samples.

Results

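The mouse genes Fam19a4, Ptgds, Pnlip, Mc4r, Nt5e, Atp10b and Capn6 were followed in oligodendrocyte progenitor cells (OPCs) given a miR-27a mimic. These 7 of the 20540 genes in the deposited table were chosen because their RNA was higher under the miR-27a mimic in streptavidin pulldown RNA, or because of their pulldown enrichment; they were thus chosen by the CPM values of these libraries. Pulldown enrichment is the pulldown minus whole-cell difference under the miR-27a mimic minus the same difference under the control mimic. The rises in those 2 contrasts are therefore given as a description, with no test. All 7 genes had a row in the table and passed the filter on low values in every comparison.

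The brain OPCs came from mice of the strain C57BL/6, aged 6 to 7 days after birth, and were kept proliferating in SATO medium with PDGFRA, as the labels spell it. Every culture received a biotin-tagged miRNA mimic, a synthetic copy of a microRNA whose tag lets RNA bound to it be collected on streptavidin. The 4 groups, of 3 libraries each, were pulldown RNA with the miR-27a mimic, pulldown RNA with the control mimic, whole-cell RNA with the miR-27a mimic, and whole-cell RNA with the control mimic. The labels do not give the control sequence, the arm of miR-27a that the mimic carries, the mimic dose, the time after transfection, the number or sex of the animals, or whether replicates were separate cultures. Libraries without a mimic or without a tag are not among those analysed here. The p-values measure the spread between these libraries, which may be technical.

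MicroRNAs guide Argonaute proteins to messenger RNAs, mostly through pairing of a short seed with sites in the 3′ untranslated region (UTR), and usually lower the amount or the translation of the bound RNA. A biotin-tagged mimic is used to enrich the RNAs that are bound to it, and capture can also carry over RNA that sticks without such pairing. Fam19a4, Ptgds and Pnlip encode secreted proteins. Fam19a4 encodes TAFA4, a small secreted protein known in mice from sensory neurons that detect gentle touch. Ptgds encodes the lipocalin-type synthase that makes prostaglandin D2 and is abundant in cerebrospinal fluid, with oligodendrocytes, meninges and choroid plexus as known sources. Pnlip encodes pancreatic triglyceride lipase, a digestive enzyme. Mc4r, Nt5e and Atp10b encode membrane proteins: the melanocortin receptor known for appetite control in the hypothalamus, the ectoenzyme CD73 that makes adenosine from AMP outside the cell, and a P4-ATPase, a lipid flippase that moves glucosylceramide in human cells. Capn6 encodes a calpain that lacks the catalytic cysteine of the family and binds microtubules.

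The sequences of the mature microRNA and of the matches to its seed are shown because the pulldown was made with this microRNA. The RefSeq entries of the GRCm38.p6 build place the 3p arm at chr8:84208727-84208747 on the plus strand. Capitals mark the seed, bases 2 to 8. The 3p arm of miR-27b, from another gene, has the same seed, and the 5p arm of miR-27a has a different one.
miR-27a-3p: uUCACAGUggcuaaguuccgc
miR-27b-3p: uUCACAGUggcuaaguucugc
miR-27a-5p: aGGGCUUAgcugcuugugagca

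Matches to the 3p seed were counted on the sense strand of the annotated transcripts (GENCODE, GRCm38), using for each gene the transcript with the longest 3′ UTR. The 8mer is ACTGTGAA, the 7mers are ACTGTGA and CTGTGAA, and the 6mer is CTGTGA; a longer match is counted once, in its own class. None of the 7 genes had an 8mer or a 7mer in the 3′ UTR, and none had one in the coding sequence. Among the 11535 genes tested in pulldown RNA that had an annotated 3′ UTR, 32.81% had an 8mer or 7mer there and 27.96% had one in the coding sequence. The 3′ UTRs of the followed genes were 2384 bases long in Atp10b, 1775 in Nt5e, 1413 in Capn6, 1358 in Fam19a4, 1338 in Mc4r, 162 in Ptgds and 61 in Pnlip, against a median of 1458 bases over the genes tested. Ptgds and Pnlip thus offer little 3′ UTR in which a match could be found. The Nt5e 3′ UTR held 1 match of the weakest class, a 6mer at chr9:88371646-88371651. Matches of the longer classes lay in the 5′ UTR of Fam19a4, an 8mer at chr6:97019924-97019931 on the minus strand, and in the 5′ UTR of Ptgds, a 7mer at chr2:25470011-25470017 on the minus strand. Of 5 annotated Ptgds transcripts, only 1, the transcript used here, held a 7mer of the 3p seed. Of the 11535 genes, 0.3641% had an 8mer in the 5′ UTR and 2.705% had an 8mer or 7mer there. Matches of the 6mer class lay in the coding sequences of Atp10b (1), Capn6 (2), Nt5e (1) and Mc4r (2), and a 7mer lay in a retained-intron transcript of Fam19a4 and in one of Nt5e. For the 5p arm, with the 7mers TAAGCCC and AAGCCCA, a match lay in the 3′ UTR of Capn6 and in the coding sequence of Atp10b, against 19.07% and 21% of the 11535 genes. Annotated transcripts of Fam19a4 and Nt5e also held 5p 7mers outside those regions of the chosen transcript. A letter match is a description and does not show that the microRNA binds there. Capitals mark the match.
Fam19a4 5′ UTR: ggaaccatatACTGTGAActctccaagg
Ptgds 5′ UTR: caccatccccACTGTGAgttttccttg
Nt5e 3′ UTR: ccaagacagtcCTGTGAccaagtgagca

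The 7 genes lie on 7 different chromosomes. Their spans on GRCm38 are chr6:96831203-97060413 for Fam19a4, chr2:25466709-25470046 for Ptgds, chr19:58652498-58681788 for Pnlip, chr18:66857704-66860506 for Mc4r, chr9:88327197-88372092 for Nt5e, chr11:43149877-43262285 for Atp10b and chrX:143802231-143827414 for Capn6. Gene spans ranged from 2.80 kb for Mc4r, whose transcript is a single exon, to 229 kb for Fam19a4, with a median of 25.3 kb over the genes tested. Atp10b overlaps annotated antisense genes, and no source used here gives the strand setting of the read counting, so their reads cannot be told apart from those of Atp10b.

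The libraries held 15548418 to 24972188 reads assigned to the genes of the table. Values are given in CPM (read counts scaled by the authors to the size of the library), and differences as log2(CPM + 1), a scale on which changes of genes near 1 CPM come out too small. At these depths the 3-read limit below which a gene counts as not detected was 0.116 to 0.200 CPM, which covers counting error only, and all 7 genes were above it in every library. Pulldown and whole-cell libraries differed throughout, with 72.3% of 13875 genes called between them. Sex-linked genes were among the differences. Xist, which is transcribed from the inactive X chromosome of female cells, averaged 347 CPM in miR-27a pulldown and 339 CPM in control pulldown, against 100.1 CPM in miR-27a whole-cell and 113 CPM in control whole-cell RNA. The Y-linked Ddx3y ran the other way, with 31.9 and 30.6 CPM in the same pulldown groups and 132 and 129 CPM in the whole-cell groups. Different cultures and the capture itself therefore cannot be told apart wherever pulldown and whole-cell RNA are set side by side below; within pulldown RNA, none of 5 sex-linked genes passed the limma test between mimics, and 0 had an unadjusted p under 0.05. Between mimics in whole-cell RNA 3 of the 5 were lower under miR-27a, Xist by 0.17, Eif2s3y by 0.16 and Kdm5d by 0.15 on the log2 scale (limma adjusted p = 0.0064, 0.0060 and 0.019), beside which the whole-cell rises of Mc4r, Ptgds and Pnlip stand; their part in those rises was not tested.

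Markers of OPCs were present in every group, with Pdgfra at 1552 and 1373 CPM in miR-27a and control pulldown and at 502 and 554 CPM in miR-27a and control whole-cell RNA. Mature oligodendrocyte markers summed to 4526 to 5546 CPM in miR-27a pulldown and 5902 to 6622 CPM in control pulldown. In whole-cell RNA they summed to 11461 to 11903 CPM under miR-27a and 11996 to 12555 CPM under control. Under miR-27a 5 of 8 fell in pulldown RNA (also 5 with the replicate block). In whole-cell RNA 3 of 9 fell and 1 rose, Opalin, by 0.30. Astrocyte markers summed to 3979 to 4495 CPM in miR-27a pulldown, 5478 to 5625 CPM in control pulldown, 6909 to 6962 CPM in miR-27a whole-cell and 8105 to 8141 CPM in control whole-cell RNA. Of 10 astrocyte markers 5 fell in pulldown RNA (7 with the replicate block), and 6 fell and 1 rose in whole-cell RNA. Of 10 OPC markers 4 rose and none fell in pulldown RNA in limma (1 lower at an unadjusted p under 0.05; 6 rose with the replicate block), and 5 rose and 1 fell in whole-cell RNA. Over all genes, 6.05% rose and 7.06% fell in pulldown RNA (9.38% and 10.8% with the replicate block), and 13% rose and 11.9% fell in whole-cell RNA. These lists moved with the mimic beside the members, and their part in the members' differences was not tested. Markers of other cells were thus present beside those of OPCs, and fewer cells of a type and less RNA per cell cannot be told apart.

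Fam19a4 was the transcript with the largest rise. Its 3 miR-27a pulldown libraries had 13.6, 12.7 and 12.8 CPM, the control pulldown libraries 2.34, 3.36 and 2.85 CPM, the miR-27a whole-cell libraries 1.08, 1.54 and 1.41 CPM, and the control whole-cell libraries 1.02, 0.888 and 1.27 CPM. The miR-27a pulldown libraries stood alone, and the 2 whole-cell groups overlapped. The mean in pulldown RNA was 13.1 ± 0.444 CPM under miR-27a and 2.85 ± 0.511 CPM under control (SD, n = 3 each), a 4.58-fold difference and a log2 difference of 1.88 ± 0.14 (SE). In whole-cell RNA the log2 difference was 0.18 ± 0.16. The whole-cell levels rested on 71 reads over the miR-27a libraries and 50 over the control libraries.

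Ptgds was higher under miR-27a in both kinds of RNA. It had 34.4, 29.7 and 32.7 CPM in miR-27a pulldown, 8.99, 8.45 and 10.3 CPM in control pulldown, 15.9, 13.6 and 15.4 CPM in miR-27a whole-cell RNA, and 6.88, 8.46 and 9.34 CPM in control whole-cell RNA. Only the 2 control groups overlapped, so under the control mimic pulldown and whole-cell levels were not distinguished by their replicates. Pulldown means were 32.3 ± 2.36 CPM under miR-27a and 9.24 ± 0.942 CPM under control (SD, n = 3 each), a 3.49-fold difference and a log2 difference of 1.70 ± 0.11 (SE). The whole-cell means were 14.97 ± 1.26 CPM under miR-27a and 8.23 ± 1.25 CPM under control (SD, n = 3 each). That 1.82-fold rise had a log2 difference of 0.80 ± 0.10 and passed the limma test (Benjamini-Hochberg adjusted p = 4.2e-06).

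Pnlip was detected at a few CPM outside the miR-27a pulldown. It had 13.9, 9.85 and 12.01 CPM in miR-27a pulldown, 2.58, 4.21 and 3.57 CPM in control pulldown, 3.39, 2.49 and 2.25 CPM in miR-27a whole-cell RNA, and 1.21, 1.95 and 1.33 CPM in control whole-cell RNA. Relative to its mean, Pnlip had the widest spread of the 7 genes in miR-27a pulldown, and control pulldown overlapped miR-27a whole-cell RNA. Pulldown means were 11.9 ± 2.00 CPM under miR-27a and 3.45 ± 0.822 CPM under control (SD, n = 3 each), a log2 difference of 1.54 ± 0.17 (SE). In whole-cell RNA Pnlip rose by 0.57 ± 0.16 on the log2 scale (limma adjusted p = 0.0094), from 145 reads in all under miR-27a and 72 under control. That call was lost without miR-27a whole-cell replicate 1 (log2 difference 0.44, adjusted p = 0.085, over all alternatives 0.0023 to 0.085).

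Mc4r, the receptor gene, rose in both kinds of RNA from a low base. It had 11.9, 10.1 and 11.2 CPM in miR-27a pulldown, 2.88, 2.12 and 2.85 CPM in control pulldown, 2.75, 2.60 and 2.31 CPM in miR-27a whole-cell RNA, and 0.637, 0.828 and 1.47 CPM in control whole-cell RNA. Control pulldown and miR-27a whole-cell values overlapped, and control whole-cell RNA was lowest. Pulldown means were 11.1 ± 0.939 CPM under miR-27a and 2.62 ± 0.427 CPM under control (SD, n = 3 each), a 4.23-fold difference and a log2 difference of 1.74 ± 0.15 (SE). The whole-cell rise was 0.87 ± 0.16 on the log2 scale (limma adjusted p = 0.00031) and 2.61-fold on the CPM means, from 136 reads under miR-27a and 46 under control. Mc4r entered that fit through its miR-27a libraries, since control libraries at 0.637 and 0.828 CPM were below the 1 CPM limit of the filter. Over all alternatives, no filter among them, the limma adjusted p was 9.2e-05 to 0.0038. With limma voom on the recovered reads the same whole-cell difference was 1.45.

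Nt5e and Atp10b had the smallest differences of the 7 in pulldown RNA, with no overlap between mimics there, and overlapping groups in whole-cell RNA. Nt5e had 14.1, 12.9 and 13.2 CPM in miR-27a pulldown, 6.11, 5.87 and 5.74 CPM in control pulldown, 3.13, 3.31 and 3.26 CPM in miR-27a whole-cell RNA, and 3.12, 3.20 and 2.47 CPM in control whole-cell RNA. Its pulldown means were 13.4 ± 0.642 CPM under miR-27a and 5.91 ± 0.191 CPM under control (SD, n = 3 each), a 2.27-fold difference. The log2 difference was 1.06 ± 0.12 (SE) in pulldown RNA and 0.11 ± 0.13 in whole-cell RNA.

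Atp10b had 36.4, 34.5 and 32.7 CPM in miR-27a pulldown, 14.9, 16.5 and 16.4 CPM in control pulldown, 7.11, 6.04 and 6.36 CPM in miR-27a whole-cell RNA, and 7.84, 7.34 and 6.54 CPM in control whole-cell RNA. Atp10b was the 1 gene of the 7 whose whole-cell mean was lower under miR-27a, with 6.503 ± 0.552 CPM against 7.24 ± 0.656 CPM under control (SD, n = 3 each), although these groups overlapped. The log2 difference was 1.07 ± 0.10 (SE) in pulldown RNA and -0.13 ± 0.11 in whole-cell RNA.

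Capn6 had the highest CPM of the 7 genes in every group and an order of groups that no other member showed. It had 60.7, 68.5 and 63.1 CPM in miR-27a pulldown, 25.5, 21.9 and 23.1 CPM in control pulldown, 49.8, 46.7 and 48.4 CPM in miR-27a whole-cell RNA, and 36.3, 34.1 and 35.6 CPM in control whole-cell RNA. No 2 groups overlapped: miR-27a pulldown was highest and control pulldown lowest, with both whole-cell groups between them. The log2 difference between mimics was 1.41 ± 0.10 (SE) in pulldown RNA and 0.44 ± 0.06 in whole-cell RNA, where the mean was 48.3 ± 1.55 CPM under miR-27a and 35.3 ± 1.11 CPM under control (SD, n = 3 each).

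**Figure D1:**
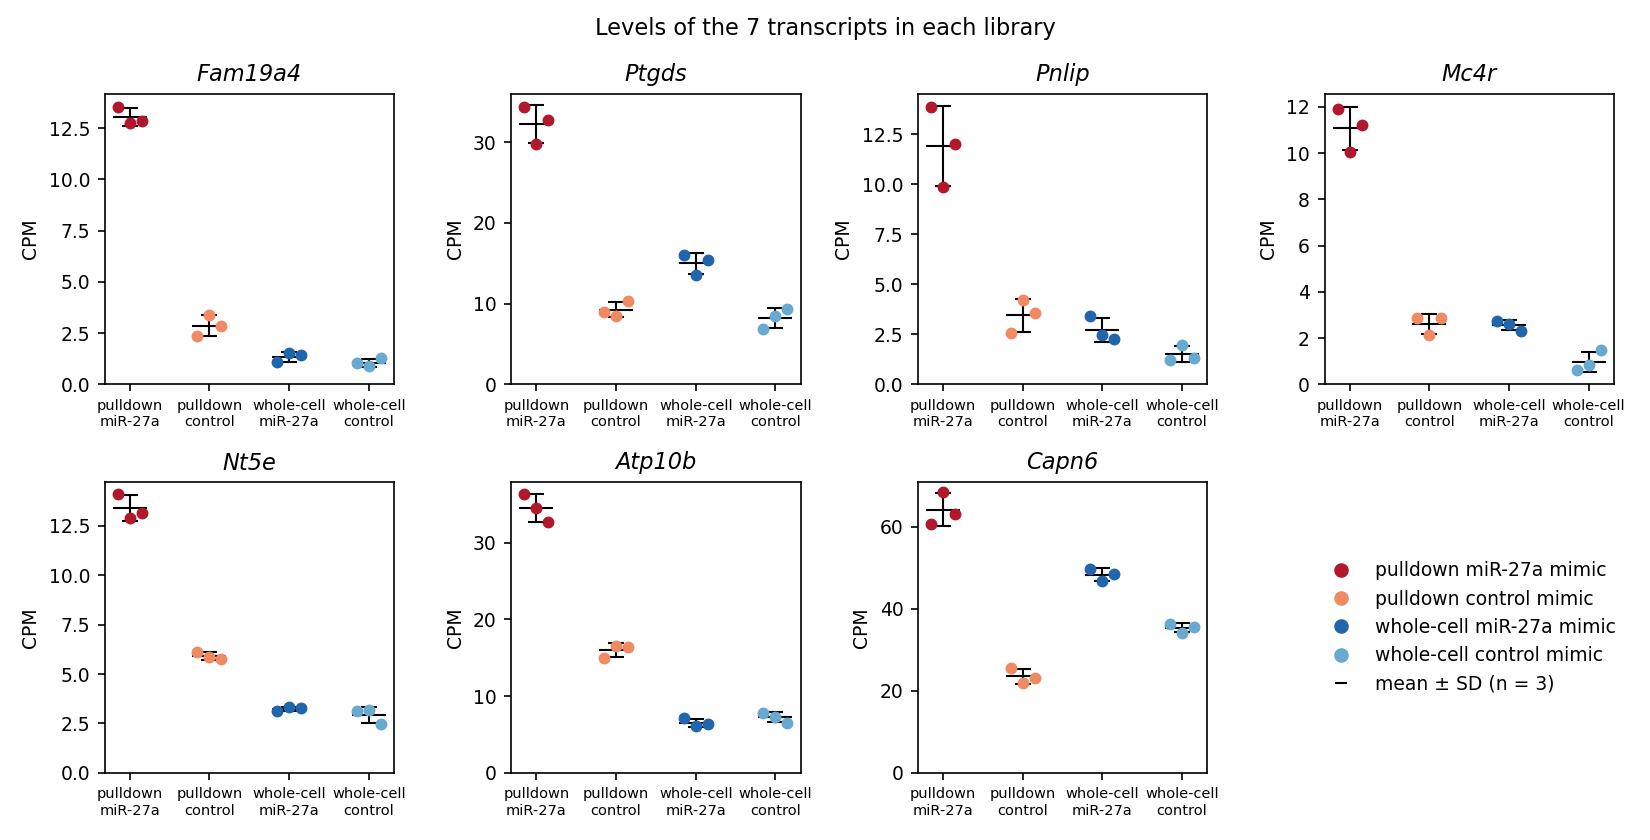
CPM of each of the 7 genes in every library, with points for libraries and bars for mean ± SD (n = 3); the vertical axes start at 0 and differ between genes. The 3 miR-27a pulldown libraries lie above all others for every gene, and Capn6 is the gene whose control pulldown libraries lie below both whole-cell groups.

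Exonic length was the union of the exons of all annotated transcripts, retained-intron transcripts included. For Fam19a4 it was 5.69 kb, while the transcript used for seed matches had 2190 bases. The order given here depends on that definition and is not an order of molecules. Scaled in this way, Ptgds had the highest value of the 7 in every group, with 19.6 CPM per exonic kb in miR-27a pulldown, 5.61 in control pulldown, 9.08 in miR-27a whole-cell RNA and 4.99 in control whole-cell RNA. Capn6 came next in every group, and its values overlapped those of Ptgds in control whole-cell RNA. Pnlip followed in miR-27a pulldown at 5.42 CPM per exonic kb, above Mc4r at 3.95 and Atp10b at 3.52, which overlapped each other. Fam19a4 at 2.29 and Nt5e at 1.56 CPM per exonic kb were lowest there, while in control pulldown and in both whole-cell groups Fam19a4 had the lowest value of the 7 on this scale.

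Whole-cell RNA shows whether the difference between mimics was limited to what was captured. Mc4r, Ptgds and Pnlip, which entered through the pulldown contrast, share no library with the whole-cell comparison, and all 3 rose there. Across all genes, 13% of 13393 were called higher in whole-cell RNA and 24.9% were called in either direction. Of the 810 genes that were called higher in pulldown RNA and tested in both, 67.9% were called higher in whole-cell RNA too, as were 81.1% of the 37 whose pulldown difference was at least 1 on the log2 scale. By the same ranks Fam19a4, Nt5e, Atp10b and Capn6 are taken to have entered through pulldown enrichment, although Fam19a4 also ranked 1 in pulldown RNA. That contrast contains the whole-cell difference with a minus sign, so their whole-cell values have no test. The groups did not overlap for Capn6, against 20.3% of genes whose miR-27a whole-cell values all lay above the control values. The rise of Mc4r, Ptgds and Pnlip was therefore not restricted to pulldown RNA, with the limit that Mc4r passed the filter there through its miR-27a libraries. For Capn6 the higher whole-cell values are a description only.

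**Figure D2:**
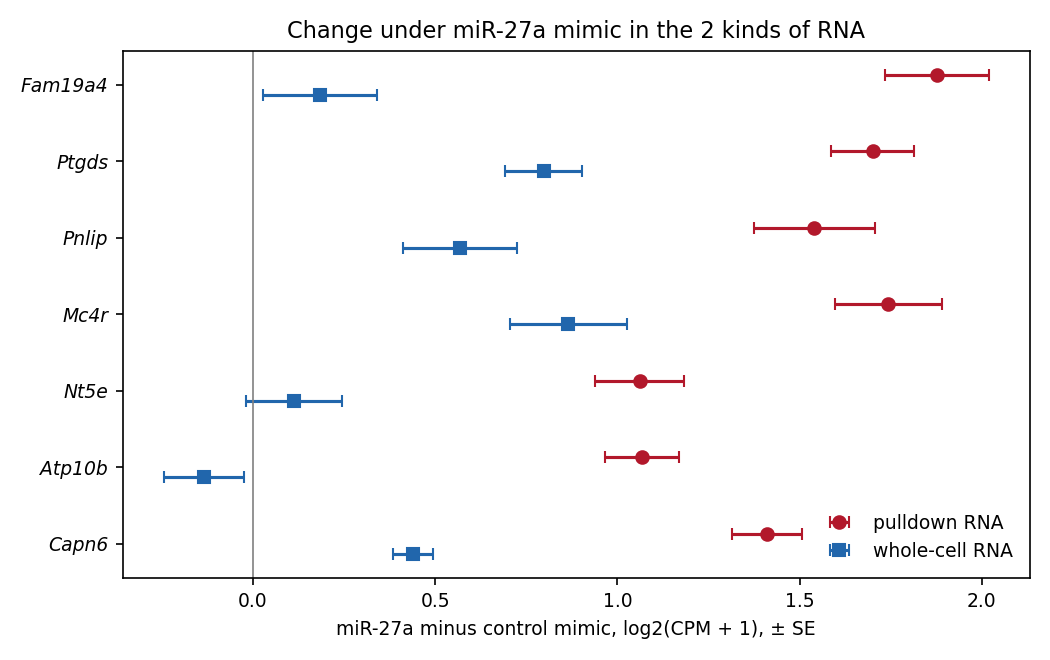
Difference between miR-27a and control mimic, as log2(CPM + 1) ± SE, for each gene in pulldown RNA (circles) and in whole-cell RNA (squares). The pulldown differences run from 1.06 to 1.88, and the whole-cell differences from -0.13 for Atp10b to 0.87 for Mc4r.

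In pulldown RNA, 6.05% of 13586 genes were called higher and 7.06% lower under miR-27a. Since this contrast chose members, nothing is read from their own differences, whose median was 1.54 against 0.00 over all genes; all 7 had no overlap between mimics, as had 14.4% of genes on the higher side. With the replicate number as a block, which treats same-numbered pulldown libraries as pairs, 2743 genes were called in place of 1781. Without single libraries the number ran from 969 (without control pulldown replicate 3) through 1002 (control replicate 1), 1029 (miR-27a replicate 3) and 1180 (control replicate 2) to 2691 (miR-27a replicate 2). Among 717 genes that passed the test in which a group averaged 5 CPM or more, with no overlap of replicate values, Fam19a4 ranked 1, Mc4r 2, Ptgds 3, Pnlip 5, Capn6 8, Atp10b 28 and Nt5e 29 by size of rise. Ccnb1, which is not a member, was at rank 4 with 1.63. The gene at rank 6, Tnc, rose by 1.53 and the gene at rank 7, Pamr1, by 1.43.

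Pulldown enrichment was 1.69 ± 0.20 for Fam19a4, 1.20 ± 0.14 for Atp10b, 0.97 ± 0.10 for Capn6, 0.95 ± 0.16 for Nt5e, 0.90 ± 0.16 for Ptgds, 0.97 ± 0.24 for Pnlip and 0.88 ± 0.22 for Mc4r (log2 ± SE). In this contrast 0.339% of 13875 genes were called higher and 0.735% lower, 47 and 102 genes, or 53 and 72 under median-of-ratios scaling. Of 42 eligible genes, again without provisional symbols, Fam19a4 ranked 2, Atp10b 4, Capn6 5, Nt5e 6 and Ptgds 10. Mc4r and Pnlip, with the largest standard errors, were not among the 42. Of the genes that are not members, Srp54b was at rank 1 with 2.60 and Kcna5 at rank 3 with 1.21, and Kcna1 followed at rank 7 with 0.93. The total of 149 was 359 and 473 without miR-27a pulldown replicates 1 and 2, and 90 and 49 without control pulldown replicates 1 and 3. It was 57, 66 and 43 without miR-27a whole-cell replicates 1, 2 and 3, and 54 and 53 without control whole-cell replicates 1 and 3.

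**Figure D3:**
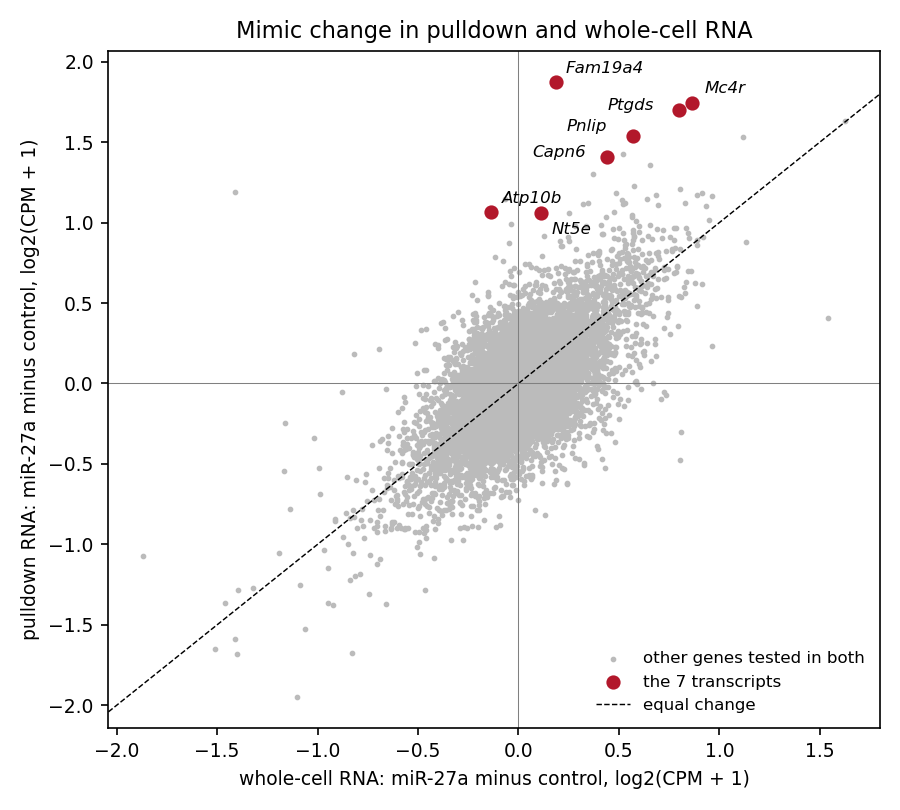
Difference between miR-27a and control mimic for each gene tested in both kinds of RNA, in whole-cell RNA (horizontal) and pulldown RNA (vertical), both as log2(CPM + 1); the dashed line marks equal change. The 7 genes (large points) lie above the line, with Fam19a4 highest at 1.88 and Atp10b the leftmost at -0.13.

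Averaged over both mimics, the log2 difference between pulldown and whole-cell RNA was 1.74 ± 0.10 for Fam19a4, 1.64 ± 0.07 for Atp10b, 1.32 ± 0.11 for Mc4r, 1.31 ± 0.12 for Pnlip, 1.29 ± 0.08 for Nt5e, 0.61 ± 0.08 for Ptgds and -0.09 ± 0.05 for Capn6 (SE). Capn6 was at 0.01 with scaling to library totals. These averages include the miR-27a pulldown values for which the genes were chosen, and Fam19a4, Mc4r and Pnlip reached a group mean of 5 CPM in that group alone, so the values are a description with no test. Of all 13875 genes 36.4% were called higher in this contrast, and for 20.7% every pulldown library lay above every whole-cell library, as for Fam19a4, Atp10b and Nt5e; nothing is read from the members' counts.

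Under the control mimic alone, the pulldown minus whole-cell difference was 1.04 ± 0.10 for Atp10b, 0.90 ± 0.14 for Fam19a4, 0.89 ± 0.15 for Mc4r, 0.83 ± 0.17 for Pnlip, 0.82 ± 0.11 for Nt5e, 0.16 ± 0.11 for Ptgds and -0.57 ± 0.07 for Capn6 (log2 ± SE). Under miR-27a it was 2.59 ± 0.14 for Fam19a4, 2.25 ± 0.10 for Atp10b, 1.80 ± 0.17 for Pnlip, 1.77 ± 0.11 for Nt5e, 1.76 ± 0.15 for Mc4r, 1.06 ± 0.11 for Ptgds and 0.40 ± 0.07 for Capn6. For 5 of the 7 genes every control pulldown library lay above every control whole-cell library, as it did for 34.2% of all genes, and Capn6 changed side between the mimics. These 2 sets of values share no library, and their difference is the enrichment given above.

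**Figure D4:**
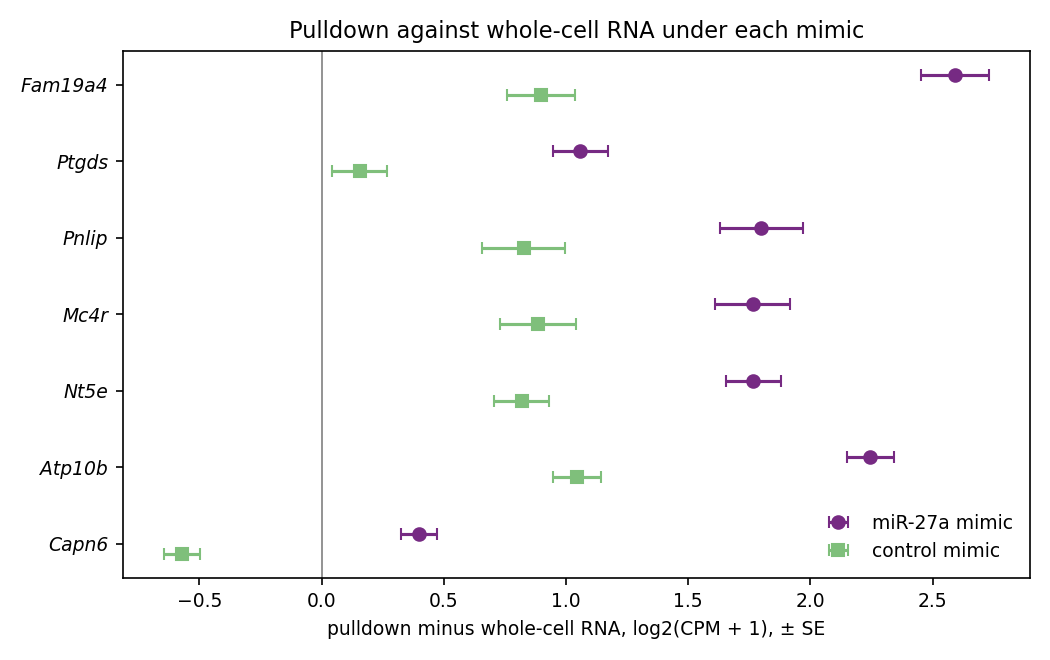
Pulldown minus whole-cell difference, as log2(CPM + 1) ± SE, under the miR-27a mimic (circles) and under the control mimic (squares). Capn6 lies at 0.40 under miR-27a and at -0.57 under control, and the other 6 genes lie above 0 under both mimics.

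Markers of other cell types also differed between pulldown and whole-cell RNA. All 9 meningeal fibroblast markers tested were higher in pulldown RNA over both mimics, against 36.4% of all genes, with a median log2 difference of 1.49. Their sum was 134 to 151 CPM in miR-27a pulldown and 132 to 133 CPM in control pulldown. In whole-cell RNA it was 43.5 to 44.9 CPM under miR-27a and 45.2 to 46.9 CPM under control. Of 6 choroid plexus and ependymal markers 4 were higher and 1 lower, and their sum was 238 to 266 CPM in miR-27a pulldown, 230 to 249 CPM in control pulldown, 96.0 to 110.1 CPM in miR-27a whole-cell and 82.0 to 90.9 CPM in control whole-cell RNA. Of 9 mature oligodendrocyte markers 8 were lower, against 35.9% of all genes. Of 10 OPC markers 8 were higher and 1 lower, with a median of 0.74. Of 6 endothelial and mural markers 4 were higher and 1 lower. Of 10 astrocyte markers 3 were higher and 5 lower, of 9 neuronal markers 2 and 6, and of 8 microglial markers 2 and 1. Between mimics in pulldown RNA, where Ptgds differed 3.49-fold, 1 meningeal marker rose (Igf2, by 0.61) and 1 fell (Pdgfrb), and none of the 6 choroid plexus and ependymal markers passed in limma (0 at an unadjusted p under 0.05). With the replicate block 2 meningeal markers rose, Col1a2 and Igf2, and 1 fell, Pdgfrb. In whole-cell RNA, where Ptgds differed 1.82-fold, Foxj1, a transcription factor of ciliated ependymal cells, rose by 0.74 ± 0.07, with 36.2 CPM under miR-27a and 21.4 CPM under control (limma adjusted p = 1.0e-07), and no other of 5 choroid plexus and ependymal markers tested there passed. No list had all its markers at 0 reads, and the part of these cells in the members' levels was not tested.

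The 7 transcripts moved largely together over the 12 libraries. Pearson correlations of log2(CPM + 1) between pairs ran from 0.30 for Atp10b and Capn6 to 0.99 for Atp10b and Nt5e. Capn6 followed the mean standardised profile of the set least, with a correlation of 0.67, against 0.89 for Atp10b and 0.98 for Mc4r. These values describe 12 libraries that fall into 4 groups and in which the members were chosen for a shared difference. Genes with provisional symbols were left out of the search for similar patterns. Over the same libraries the genes most like the mean profile were Iqgap1, Uxs1, Grb10, Pamr1, Igf2r and Kcna1, with correlations of 0.97 to 0.98. Grb10 encodes an adaptor that binds insulin receptors, Igf2r the receptor that clears IGF2, and Kcna1 a voltage-gated potassium channel subunit. Pamr1 averaged 21.1 CPM in miR-27a pulldown, 7.21 CPM in control pulldown, 6.21 CPM in miR-27a whole-cell and 4.09 CPM in control whole-cell RNA, and was the gene most like Mc4r (correlation 0.99). The mitotic gene Dlgap5 was most like Capn6, at 0.96, with 50.5 and 26.1 CPM in miR-27a and control pulldown and 40.7 and 30.2 CPM in miR-27a and control whole-cell RNA.

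Relatives and pathway partners of the 7 genes were followed on lists chosen by family. Of 97 genes on the 7 family lists, 90 were in the table. In pulldown RNA 3 rose and 7 fell of 57 tested, against 6.05% and 7.06% of all genes; in whole-cell RNA 7 rose and 13 fell of 52, against 13% and 11.9%. With the replicate block 5 rose and 10 fell of the 57 in pulldown RNA, against 9.38% and 10.8% of all genes. In pulldown enrichment none rose in limma (8 at an unadjusted p under 0.05) and 1 of 59 fell, Capn5, by 0.58 ± 0.13 (limma adjusted p = 0.029).

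The TAFA relative that rose in pulldown RNA was Fam19a1, a neighbour of Fam19a4 at a distance of 174 kb on the other strand. Fam19a1 averaged 63.3 CPM in miR-27a pulldown and 41.8 CPM in control pulldown, a log2 difference of 0.58 ± 0.10 (limma adjusted p = 0.0013), and 12.9 and 12.3 CPM in miR-27a and control whole-cell RNA. Fam19a2 did not pass in pulldown RNA (-0.07 ± 0.10), where it averaged 173 CPM under miR-27a and 181 CPM under control, and rose in whole-cell RNA by 0.13 ± 0.04 (limma adjusted p = 0.023). Of the nearest neighbours of the other members, Pak3 and Dcx beside Capn6, Snx14 and Tbx18 beside Nt5e, Pmaip1 and Gnal beside Mc4r, and Gfra1 beside Pnlip were tested in pulldown RNA, with differences of -0.16 to 0.18, and none passed. In whole-cell RNA Dcx rose by 0.22 ± 0.05 (limma adjusted p = 0.0018) and Tbx18 fell by 0.39 ± 0.13 (limma adjusted p = 0.030). The other neighbours named here did not pass there. Pnliprp1, the lipase gene next to Pnlip, was at or near 0 reads in all groups.

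On the list of flippases and their partners 2 of 13 genes tested rose in pulldown RNA, and 4 with the replicate block. Atp8a2, a flippase known from neurons and photoreceptors, averaged 6.56 CPM in miR-27a pulldown and 3.51 CPM in control pulldown, a log2 difference of 0.76 ± 0.17 (limma adjusted p = 0.0066), with 2.71 and 2.91 CPM in miR-27a and control whole-cell RNA. Atp11b, another flippase, rose by 0.38 ± 0.10. Among calpains, Capn5 was the reverse of Capn6 in pulldown RNA, with 20.3 CPM under miR-27a and 29.4 CPM under control, a log2 difference of -0.52 ± 0.12 (limma adjusted p = 0.0072). In whole-cell RNA Capn5 averaged 48.0 CPM under miR-27a and 45.8 CPM under control and did not pass.

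On the list of extracellular purine enzymes and adenosine receptors, to which the product of Nt5e belongs, none of 13 genes tested in pulldown RNA rose in limma (3 at an unadjusted p under 0.05) and 3 fell, or 5 with the replicate block. The 3 were Adora2b, a receptor for adenosine, which fell by 1.53 ± 0.16, Adora2a, another such receptor, by 0.64 ± 0.18, and Ada, the deaminase that breaks adenosine down, by 0.53 ± 0.13 (log2 ± SE). Adora2b averaged 1.09 CPM in miR-27a pulldown and 5.004 CPM in control pulldown, and 1.57 and 4.36 CPM in miR-27a and control whole-cell RNA, where it fell by 1.06 ± 0.14 (limma adjusted p = 3.6e-06).

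On the prostaglandin list, to which the product of Ptgds belongs, 12 genes were tested. In pulldown RNA none rose and 2 fell in limma, and in whole-cell RNA none rose and 5 fell; at an unadjusted p under 0.05, 0 were higher in either. Ptges, the inducible synthase of prostaglandin E2, averaged 14.2 CPM in miR-27a pulldown and 22.9 CPM in control pulldown and fell by 0.65 ± 0.11 there and by 0.39 ± 0.09 in whole-cell RNA (limma adjusted p = 0.0013 in each). Ptgr2, which inactivates prostaglandins, fell by 0.43 ± 0.11 in pulldown RNA. Hpgd, the dehydrogenase that inactivates prostaglandin E2, fell by 0.46 ± 0.06 in whole-cell RNA.

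Few genes of the melanocortin and lipase lists were abundant enough to be tested. Of 3 melanocortin genes tested, including Pomc, the precursor of the ligand of Mc4r, none passed in limma in pulldown or whole-cell RNA (1 and 0 at an unadjusted p under 0.05). Pomc averaged 1.90 CPM in miR-27a pulldown and 2.39 CPM in control pulldown. Of 5 genes of the lipase list tested in pulldown RNA 0 were higher at an unadjusted p under 0.05. Among them 1 fell, Liph, which makes lysophosphatidic acid, by 0.55 ± 0.13 (limma adjusted p = 0.012). Lpl, the lipase that feeds tissues from blood lipoproteins, fell by 0.57 ± 0.11 in whole-cell RNA.

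**Figure D5:**
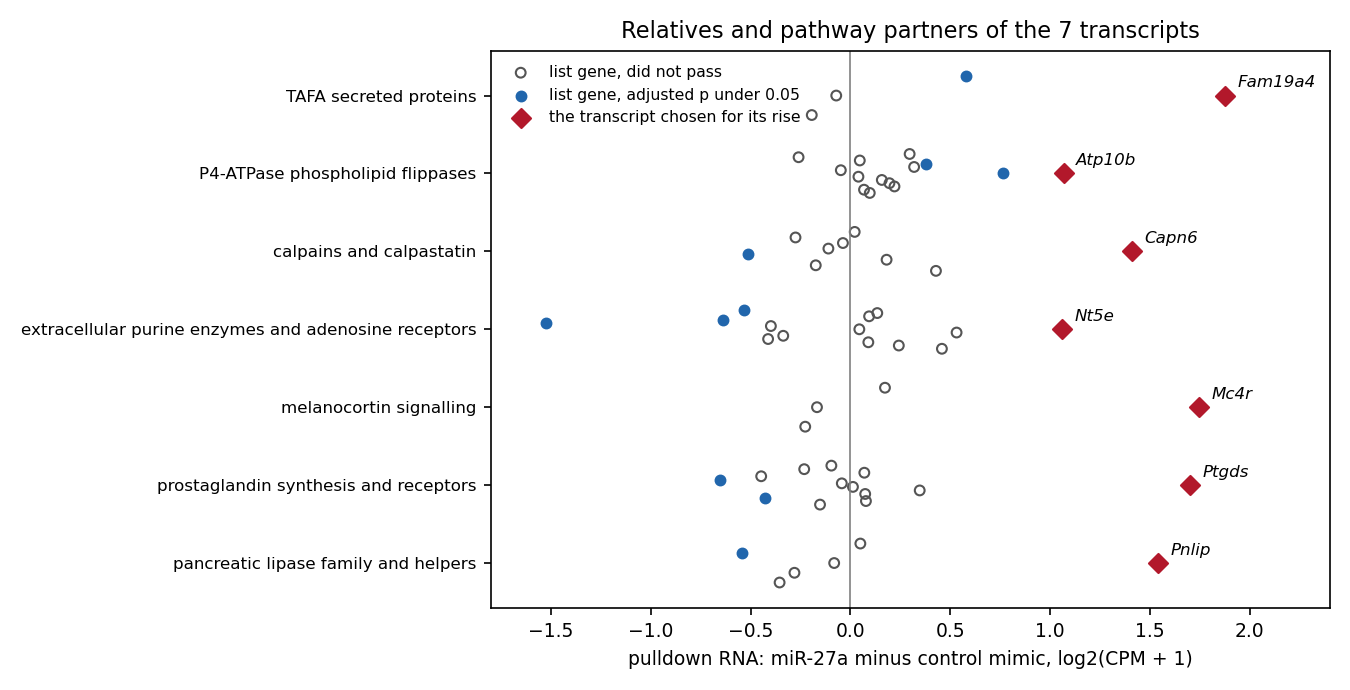
Difference between miR-27a and control mimic in pulldown RNA, as log2(CPM + 1), for the tested genes of the 7 family lists (circles, filled where the adjusted p is under 0.05) and for the gene of each family that was chosen for its rise (diamonds). Of 57 list genes 3 lie on the higher side and 7 on the lower side with filled circles, and the lowest point is Adora2b at -1.53.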

How the data were processed

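The authors deposited log2 CPM for 20540 genes in 12 libraries, 3 in each of 4 groups taken from the sample titles. Per the series' design text, reads of a stranded total-RNA kit with ribosomal depletion were trimmed with skewer, aligned with HISAT2 to GRCm38, sorted with SAMtools, counted with featureCounts (Subread) and normalised by the authors with edgeR. The submitters' processing notes also name mm8, with no role; no source used here gives tool versions. This kit does not measure the mature microRNA, so the level of the mimic is not known here.

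From the deposited log2 values, CPM was recovered by subtracting the value of 0 reads, set by a prior of 0.25 reads; 100% of values were then whole reads within 0.01 reads. Assigned reads ran from 15548418 to 24972188 per library, with normalisation factors of 0.961 to 1.055.

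Tests used limma 3.58.1 (R 4.3.3) with a mean-dependent prior variance, two-sided, on log2 of CPM plus 1. Genes entered a fit when 3 or more of its libraries had 1 CPM or more. P-values were adjusted by Benjamini-Hochberg over all genes tested, with a threshold of 0.05. The mimic contrasts used the 6 libraries of their kind of RNA; the other contrasts used all 12. Alternatives were other pseudocounts, no filter, 2 other scalings, limma voom on recovered reads, a replicate block, 1 fit of all libraries, and leaving out each library. The code was tested on simulated data. Deviations of same-numbered libraries correlated by 0.13, 0.27 and 0.11 in pulldown RNA and by 0.00, -0.03 and -0.03 in whole-cell RNA. Between differently numbered pulldown libraries of the 2 mimics the correlations ran from -0.20 to 0.06. Yet miR-27a pulldown replicate 2 and control whole-cell replicate 1 correlated by 0.22. A pairing of pulldown libraries by number is thus not established, and comes from the titles and the data only.

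The 7 genes and all gene lists were chosen with earlier results of these data known. Beside the 7, named genes are the ranks next to the choice, the genes of most similar pattern, and nearest neighbours. Also named are up to 3 genes past the threshold per family list, by smallest p in pulldown RNA. Pomc, Xist, Ddx3y, Eif2s3y, Kdm5d, Foxj1, Ccnb1, Srp54b and Kcna5 were named after their values were seen. So were Pdgfra, Igf2, Pdgfrb, Col1a2, Pnliprp1, Mag, Mbp, Gfap and Opalin. Seed matches and gene models came from GENCODE annotation on GRCm38, to which 18013 genes of the table were matched by symbol, and microRNA sequences from RefSeq. Seed matches outside the 7 genes are not reported here one by one.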

Additional observations from a re-analysis of the deposited data

Results flagged for a closer look

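Among the genes of the family lists, the effect of the mimic differed between pulldown and whole-cell RNA, by the test of that difference, for Capn5. Its pulldown enrichment was -0.58 on the log2 scale. Of the cell type markers, Foxj1 (-0.81), Mag (-0.78), Mbp (-0.68), Gfap (-0.53), Opalin (-0.44) and Igf2 (0.63) passed the same test, which called 0.339% of all genes higher and 0.735% lower. Fam19a4 (1.69), Atp10b (1.20), Capn6 (0.97), Nt5e (0.95) and Ptgds (0.90) passed the same test, but they were chosen with this contrast or the pulldown contrast in view, so their values are a description.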

How the results depend on the processing

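Of 42 recomputed whole-cell values of Mc4r, Ptgds and Pnlip, 41 kept their direction and side of the threshold; Pnlip lost its call without miR-27a whole-cell replicate 1 (adjusted p = 0.085). The other 420 recomputed values of the 7 genes are descriptions. Of these 419 kept their direction, 6 moved beyond their spread, and Capn6 in pulldown against whole-cell RNA turned to 0.010 with scaling to library totals; the cause was not tested. In 1 fit of all 12 libraries 1415 genes were called in whole-cell RNA in place of 3335, and 3051 in pulldown RNA in place of 1781. With the replicate block 2743 genes were called in pulldown RNA, and the block changed no whole-cell call of Mc4r, Ptgds or Pnlip. Leaving out 1 replicate gave 969 to 2691 genes in pulldown RNA and 43 to 473 in pulldown enrichment, against 149, and no filter on low values gave 73. Levels near 1 CPM in control whole-cell RNA rest on 46 reads for Mc4r and 50 for Fam19a4 in the 3 libraries together, which limits the precision of their whole-cell differences.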
